A study of Mus musculus with 6 samples.

Results

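The major histocompatibility complex (MHC) genes and their partners in antigen presentation were followed in mouse hematopoietic stem and progenitor cells kept with or without valproic acid (VPA), an inhibitor of histone deacetylases. A gene was included where its symbol in the platform annotation begins with H2-, or where it is Cd74, Ciita, B2m, Tap1, Tap2, Tapbp, Tapbpl, Erap1, Nlrc5 or Ifi30, and each gene is shown by its brightest probe. These were 45 genes with 61 probes, of which 27 genes were measured. A gene counted as measured when 3 or more of the 6 arrays gave its probe a detection p-value below 0.05. The whole array held 7967 measured genes. Of the 45, 31 belong to class I or its pathway, 13 to class II or its pathway, and H2-Ke6, which carries the prefix because of its place in the complex and encodes a steroid dehydrogenase, to neither.

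The cells came from bone marrow of C57Bl/6 mice by their L-S+K+ phenotype. All 6 cultures ran for 24 h in serum with 2 recombinant murine growth factors, SCF and GM-CSF. In 3 of them 1 mM VPA was present, and the 3 controls had the growth factors only. Each culture gave 1 single-colour Illumina array. The series design calls the triplicates independent and biological, and the labels give neither the age of the mice nor whether animals were pooled.

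MHC class I molecules are built from a heavy chain and beta-2 microglobulin, and present peptides that the TAP transporter brings into the endoplasmic reticulum. Class II molecules are built from an alpha and a beta chain. The invariant chain Cd74 guards them until H2-DM loads a peptide in the endosome, and H2-O restrains that step. Class II is a hallmark of dendritic cells, macrophages and B cells and is also found on part of the early progenitors. Its promoters carry an X box and a Y box (an inverted CCAAT box), on which the coactivator CIITA acts, and class I promoters share this layout with NLRC5 in the place of CIITA.

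That layout is shown here for some genes of each class, as far as the letters searched matched. Sequences are from RefSeq's promoter windows of build GRCm38.p6, which hold 250 bases before a start and the next bases up to a length of 300. Of the 27 measured genes 19 matched a window. H2-Ab1, Cd74, Tap2, Nlrc5, Tapbpl, H2-Q1, H2-Q8 and H2-T10 had none and were not searched. The capitals mark an X1 box with up to 1 mismatch and the Y box ATTGG in H2-DMb1 (chr17:34153089-34153138, plus strand), H2-Eb1 (chr17:34305768-34305816, plus strand) and H2-Ob (chr17:34238810-34238856, plus strand). In H2-Aa (chr17:34287863-34287901, minus strand) they mark TGACG, the core letters of the CREB site of X2 boxes, and ATTGG. Each sequence runs 5′ to 3′ on the strand of the gene.
H2-DMb1: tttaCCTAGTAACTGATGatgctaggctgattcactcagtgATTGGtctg
H2-Eb1: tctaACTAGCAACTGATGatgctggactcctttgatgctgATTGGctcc
H2-Ob: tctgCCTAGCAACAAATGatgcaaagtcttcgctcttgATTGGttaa
H2-Aa: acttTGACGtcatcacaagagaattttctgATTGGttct
In class I the same kind of stretch also held an NF-kappaB site. Its letters are the capitals nearest the left end, followed by TGACG and ATTGG, for H2-K1 (chr17:34000355-34000462, minus strand), H2-D1 (chr17:35262919-35263026, plus strand) and H2-Q7 (chr17:35439018-35439123, plus strand). The light chain gene B2m (chr2:122147605-122147642, plus strand) had TGACG and ATTGG.
H2-K1: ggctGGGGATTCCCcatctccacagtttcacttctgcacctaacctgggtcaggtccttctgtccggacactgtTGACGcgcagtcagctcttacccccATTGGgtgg
H2-D1: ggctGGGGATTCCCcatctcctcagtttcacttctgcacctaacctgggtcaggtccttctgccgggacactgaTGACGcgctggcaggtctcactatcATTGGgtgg
H2-Q7: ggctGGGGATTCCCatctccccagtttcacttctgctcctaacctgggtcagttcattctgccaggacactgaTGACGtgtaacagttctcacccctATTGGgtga
B2m: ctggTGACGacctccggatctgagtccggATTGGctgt

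Over all 32851 promoter windows, an X1 box followed by ATTGG 15 to 45 bases on, start to start and both on the strand of the gene, was found in 8, or 0.0244%. Shares here count windows, while a measured gene counts where any of its windows holds the motif. Among the measured genes with a window, 3 of 7 class II genes held it, namely H2-DMb1, H2-Eb1 and H2-Ob, and 0 of 11 class I genes. The combination of TGACG and ATTGG at the same spacing occurred in 0.496% of windows, in 5 of the 11 class I genes (B2m, H2-D1, H2-K1, H2-M3 and H2-Q7) and in H2-Aa of class II. The NF-kappaB site, with exactly the letters shown above and on either strand, was present in 0.107% of windows, among them those of H2-D1, H2-K1 and H2-Q7. CCAAT on either strand, which includes the Y boxes above, was present in 37.4% of windows, in 10 of 11 class I and 6 of 7 class II genes. GAAA followed after 2 bases by GAAA, on either strand, is the core of the interferon-stimulated response element. It was in 3.44% of windows and in those of B2m, Erap1 and H2-T23. A match is a match of letters only.

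The arrays were not alike. VPA replicate 1 was dim, with a median raw signal of 225.7 over the kept probes against 456 to 646.6 on the others, or 2.37 times the median of its undetected probes against 3.93 to 4.82 times. It correlated with the other VPA arrays at r = 0.947 and 0.957 across probes, where all other pairs within a group reached at least 0.989. Values without this array are given where leaving it out changed a call or a sign or moved the difference by over 1.5 times. Of the stem and progenitor markers named on the array, 11 of 15 were measured, Cd34, Flt3, Gata2, Meis1 and Myb among them.

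Antigen presentation genes as a whole did not stand out with VPA. By limma, 0 of the 27 passed an adjusted p of 0.05 in either direction, where 3.41% of all 7967 genes passed as higher and 0.314% as lower. Before adjustment, 5 had a p under 0.05 and were higher with VPA and 1 was lower, against 11.5% and 5.59% of all genes. In simulated data the same fit missed most differences of 1.5-fold and of 2-fold, so a gene that did not pass may still have changed. The groups did not overlap for 6 genes that were higher with VPA, H2-Ab1, H2-DMa, H2-Ob, H2-M3, Nlrc5 and H2-Ke6, which is 22.2% of the 27 against 16.7% of all genes. They did not overlap for 2 that were lower, Cd74 and Tapbpl, or 7.41% against 11.2%. The median log2 change over the 27 was 0.04, and that over all genes was -0.02. Log2 changes below are VPA minus control on normalized log2 signals, with the standard error (SE) of the fit and n = 3 arrays per group.

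**Figure D1:**
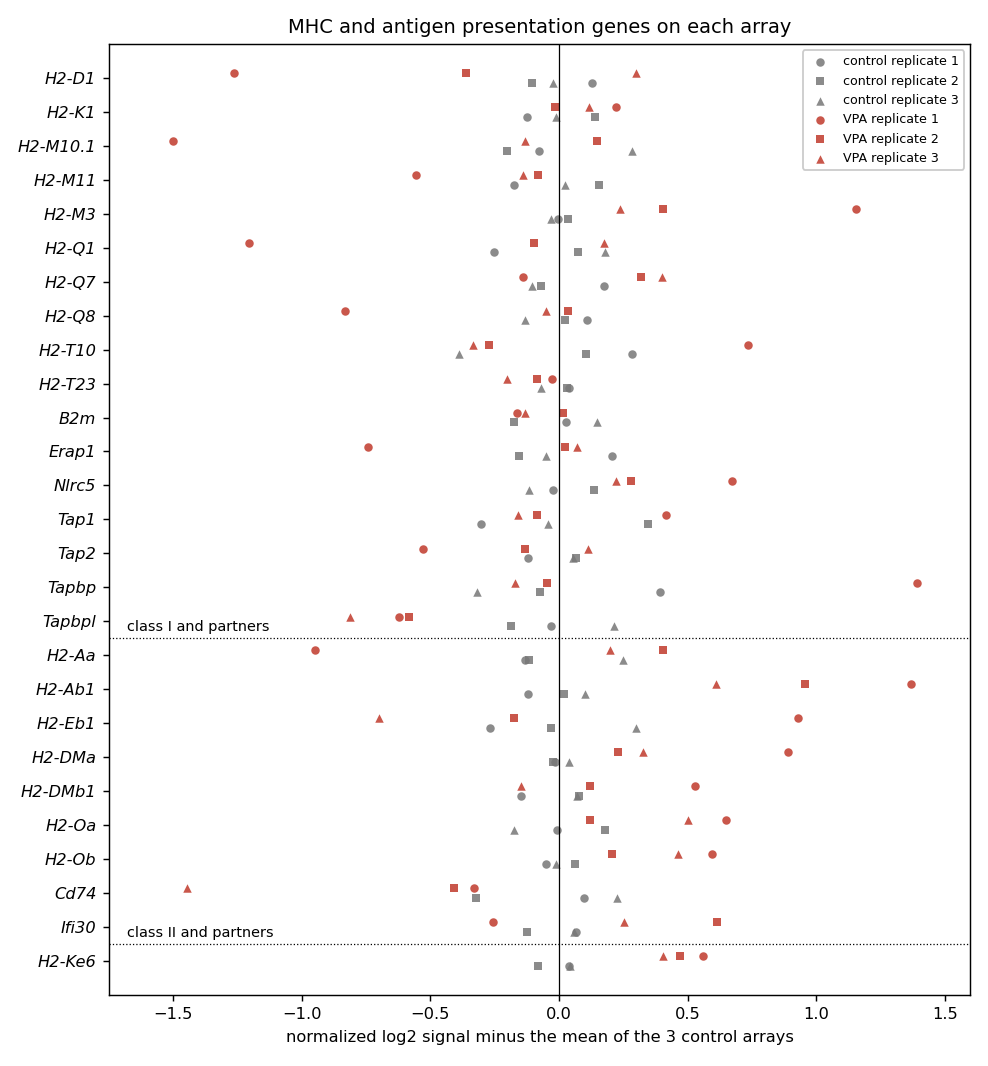
Normalized log2 signal of each of the 27 measured genes on each array, minus the mean of the 3 control arrays (x axis), for control (grey, lower row of each gene) and VPA (red, upper row); marker shapes are replicate numbers and dotted lines part class I, class II and H2-Ke6. The 3 VPA arrays of H2-Ab1 lie to the right of all controls and those of Tapbpl to the left, and VPA replicate 1 (red circles) is the outermost VPA array for many genes.

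Over all 6 arrays the largest difference was that of H2-Ab1, the beta chain of the class II molecule I-A. Without VPA replicate 1 that of Cd74, below, was larger in size and negative. The normalized log2 signals of H2-Ab1 were 10.32, 10.46 and 10.54 in control replicates 1 to 3. They were 11.81, 11.39 and 11.05 in VPA replicates 1 to 3. All VPA arrays lay above all controls. The difference was 0.98 ± 0.21 (1.97-fold, SE) and its adjusted p by limma, 0.0583, missed the threshold. Without VPA replicate 1 the difference was 0.78 and passed (adjusted p = 0.0233). H2-Ab1 has 3 further measured probes. One of them rose by 1.19 ± 0.16 and passed (adjusted p = 0.0112), and its values were 9.18, 9.25 and 9.36 in control and 10.67, 10.40 and 10.27 with VPA. The others stood at 1.04 ± 0.30 (adjusted p = 0.138) and 0.82 ± 0.38 (adjusted p = 0.328). The last had one VPA array, at 8.25, inside the control range of 7.77 to 8.27. The 4 probes thus gave differences of 0.82 to 1.19 in the same direction, and 1 of them passed. Without VPA replicate 1 they gave 0.37 to 1.08 and 3 passed, the exception being the last (0.37, adjusted p = 0.269).

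H2-Aa, the alpha chain that pairs with it, did not pass, and the difference between the chains was not tested. Its signals were 8.50, 8.52 and 8.89 in control and 7.69, 9.04 and 8.84 with VPA, so that VPA replicate 1 lay below all controls, VPA replicate 2 above them and VPA replicate 3 among them. The difference was -0.12 ± 0.35 (adjusted p = 0.879), or 0.30 without VPA replicate 1 (adjusted p = 0.289). With array weights it was called higher, at 0.40 (adjusted p = 0.0439). Taking each gene against its own control mean, H2-Ab1 exceeded H2-Aa by 2.32, 0.55 and 0.41 in VPA replicates 1 to 3. The control arrays gave -0.15 to 0.14, values that centre on 0 by construction. H2-Eb1, the beta chain of I-E, stood at 7.75, 7.98 and 8.32 in control and at 8.95, 7.84 and 7.32 with VPA. VPA replicate 1 lay above the controls and VPA replicate 3 below them. Its difference of 0.02 ± 0.39 (adjusted p = 0.984) was -0.44 without VPA replicate 1 (adjusted p = 0.260). H2-Ea, the I-E alpha chain, which C57BL mice do not express, was not detected on any of the 6 arrays, with raw signals of 93.9 to 133.2. The second E beta gene, H2-Eb2, was likewise undetected on all arrays.

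**Figure D2:**
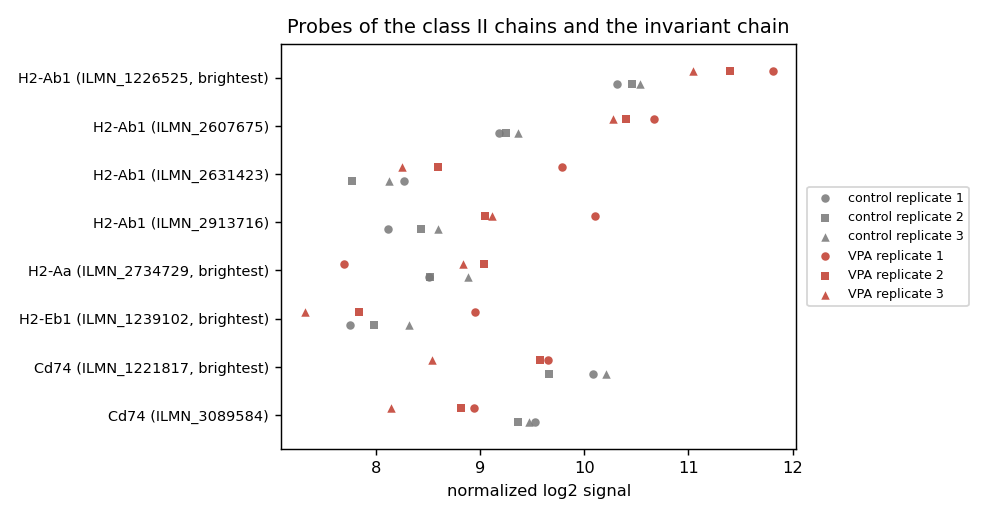
Normalized log2 signal (x axis) of each measured probe of H2-Ab1, H2-Aa, H2-Eb1 and Cd74 on the 3 control (grey) and 3 VPA (red) arrays, with marker shapes for replicate numbers. VPA arrays lie to the right of the controls for 3 of the 4 H2-Ab1 probes and to the left for both Cd74 probes.

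Cd74, the invariant chain, had signals of 10.08, 9.66 and 10.21 in control and 9.65, 9.57 and 8.54 with VPA. The groups did not overlap, but VPA replicate 1 lay just under control replicate 2. Its difference of -0.73 ± 0.32 had an adjusted p of 0.302, or 0.118 at -0.93 without VPA replicate 1. Without VPA replicate 3 it was -0.37. A second probe gave 9.53, 9.37 and 9.47 in control and 8.94, 8.81 and 8.15 with VPA, a difference of -0.82 ± 0.23 (adjusted p = 0.118). That probe passed without VPA replicate 1, at -0.98 (adjusted p = 0.0303). Against their own control means, H2-Ab1 exceeded Cd74 by 1.70, 1.37 and 2.06 in VPA replicates 1 to 3, and by -0.22 to 0.34 on the control arrays. The gap between the beta chain and the invariant chain was larger on each VPA array than on any control. These genes have the highest and the lowest difference of the 9 class II genes. Control values centre on 0 by construction, and the gap was not tested.

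The peptide-loading genes of class II had positive differences throughout, and 0 of 4 passed. H2-DMa, the alpha chain of the peptide exchange factor, stood at 11.87, 11.86 and 11.92 in control and 12.77, 12.11 and 12.21 with VPA, a difference of 0.48 ± 0.20 (adjusted p = 0.281). All its VPA arrays lay above the controls, although without VPA replicate 1 the difference was 0.28. H2-Ob, the beta chain of the inhibitor H2-O, stood at 7.87, 7.98 and 7.91 in control and 8.52, 8.12 and 8.38 with VPA, or 0.42 ± 0.16 (adjusted p = 0.229). Its partner H2-Oa was at 0.42 ± 0.19 (adjusted p = 0.313), with VPA replicate 2 inside the control range. H2-DMb1, which pairs with H2-DMa, was at 0.17 ± 0.20 and at -0.014 without VPA replicate 1. Ifi30, a thiol reductase that unfolds antigens in the endosome, was at 0.20 ± 0.23, with VPA replicate 1 under all controls and VPA replicates 2 and 3 above them, and at 0.43 without VPA replicate 1. A second Ifi30 probe was at 0.28, or 0.14 without that array.

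The master regulator of the class could not be followed. Ciita had raw signals of 169.7, 112.4 and 150.3 in control and 133.6, 125.9 and 128.9 with VPA, on arrays of unlike brightness. After normalization these were 5.37, 4.82 and 5.27 in control and 6.98, 5.23 and 5.06 with VPA. It was detected on 1 of the 6 arrays, the dim VPA replicate 1, where its raw signal lay below those of control replicates 1 and 3. H2-DMb2 was detected on 2 arrays and was not measured either. In bulk cultures such as these, fewer cells of a type and less RNA per cell cannot be told apart.

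Among the class I genes, the light chain B2m was bright everywhere, with raw signals of 21431 to 28591 in control and 11246 to 21614 with VPA, the lowest on the dim array. After normalization it stood at 14.51, 14.31 and 14.63 in control and 14.32, 14.50 and 14.35 with VPA, and the groups overlapped (-0.09 ± 0.15, adjusted p = 0.774). It was at -0.059 without VPA replicate 1, and a second probe was at -0.16 over all arrays. The classical heavy chain H2-K1 stood at 8.81, 9.08 and 8.92 in control and 9.16, 8.92 and 9.05 with VPA (0.11 ± 0.15, adjusted p = 0.738), and a second probe gave -0.34 ± 0.27. These were 0.049 and -0.048 without VPA replicate 1. H2-D1, the other classical heavy chain, stood at 10.14, 9.91 and 9.99 in control and 8.75, 9.65 and 10.32 with VPA. Its VPA arrays spread from below to above the controls (-0.44 ± 0.36, adjusted p = 0.558), and without VPA replicate 1 the difference was -0.031. Class I heavy chain genes are near copies of each other, and which of them a probe reads was not examined here.

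Of 8 non-classical heavy chain genes 0 passed. H2-M3, which presents formylated bacterial and mitochondrial peptides, stood at 8.58, 8.62 and 8.56 in control and 9.74, 8.99 and 8.82 with VPA. The 3 VPA arrays lay above the controls, at 0.60 ± 0.25 (adjusted p = 0.273), or 0.32 without VPA replicate 1. H2-T23, which encodes Qa-1, a ligand of inhibitory receptors on NK cells, stood between 11.54 and 11.78 on all 6 arrays (-0.10 ± 0.14). A second probe of H2-T23 ran from 9.87 to 11.10 and was at -0.23 ± 0.31, or 0.15 without VPA replicate 1. H2-Q7, a gene of the Qa-2 antigen, was at 0.19 ± 0.19 and H2-Q8 at -0.28 ± 0.25, or at 0.36 and -0.0072 without VPA replicate 1. The others ranged from -0.50 (H2-M10.1, detected on 2 of 3 VPA arrays) to 0.04 (H2-T10, annotated as a transcribed pseudogene), with H2-M11 detected on 1 of 3 VPA arrays. Without VPA replicate 1, H2-M10.1 was at 0.0082, H2-M11 at -0.11, H2-Q1 at 0.038 and H2-T10 at -0.30. Of the 14 class I genes that were not measured, 13 were undetected on all 6 arrays, including 5 H2-M10 genes, and the pseudogene H2-Q5 was detected on 2.

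Among the class I partners, Tapbpl, the TAPBPR peptide editor, was lower on every VPA array. It stood at 8.55, 8.40 and 8.80 in control and 7.96, 8.0 and 7.77 with VPA, a difference of -0.67 ± 0.16 that missed the threshold (adjusted p = 0.0833). Without VPA replicate 1 it passed, at -0.70 (adjusted p = 0.0417). Its relative tapasin, Tapbp, which holds class I molecules at the transporter, stood at 6.10, 5.63 and 5.39 in control and 7.10, 5.66 and 5.54 with VPA. Only VPA replicate 1 lay outside the control range, and the difference of 0.39 ± 0.42 was -0.11 without it. This Tapbp probe was detected on 2 of 3 control and 2 of 3 VPA arrays. A second probe, detected on 2 control and 0 VPA arrays, was not kept, and its mean was 5.74 in control and 5.05 with VPA. The transporter subunits Tap1 and Tap2 were at 0.06 ± 0.23 and -0.18 ± 0.20, and Erap1, which trims peptides to length, at -0.22 ± 0.25. The 3 were at -0.12, -0.0091 and 0.047 without VPA replicate 1. Nlrc5, the transactivator of class I, stood at 8.26, 8.42 and 8.16 in control and 8.95, 8.56 and 8.50 with VPA. These groups did not overlap, and the difference was 0.39 ± 0.18 (adjusted p = 0.313), or 0.25 without VPA replicate 1.

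H2-Ke6, of neither class, had the smallest SE of the 8 genes whose groups did not overlap. It stood at 11.45, 11.33 and 11.45 in control and 11.97, 11.88 and 11.81 with VPA, at 0.48 ± 0.14 (adjusted p = 0.139). Without VPA replicate 1 the difference was 0.44 (adjusted p = 0.0669).

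Set side by side, class II genes lay somewhat higher than class I genes. Of 9 class II genes 7 had positive differences, with a median of 0.20, and of 17 class I genes 7 did, with a median of -0.10, where 48% of all genes were positive. The spread within class II, from -0.73 (Cd74) to 0.98 (H2-Ab1), was wider than the distance between the medians. By array, the class II median exceeded the class I median by 0.76, 0.25 and 0.30 in VPA replicates 1 to 3, and by -0.05, -0.06 and 0.10 in control replicates 1 to 3. Control values centre on 0 by construction. The SD of this excess between replicates, pooled within groups, was 0.21. These are descriptions with no test. VPA replicate 1 contributed most: over the 27 genes its SD around the control means was 0.83, against 0.33 and 0.45 in VPA replicates 2 and 3. Over all genes the same SD was 0.76, 0.42 and 0.44, so the genes of antigen presentation were spread about as widely as the others on each VPA array.

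**Figure D3:**
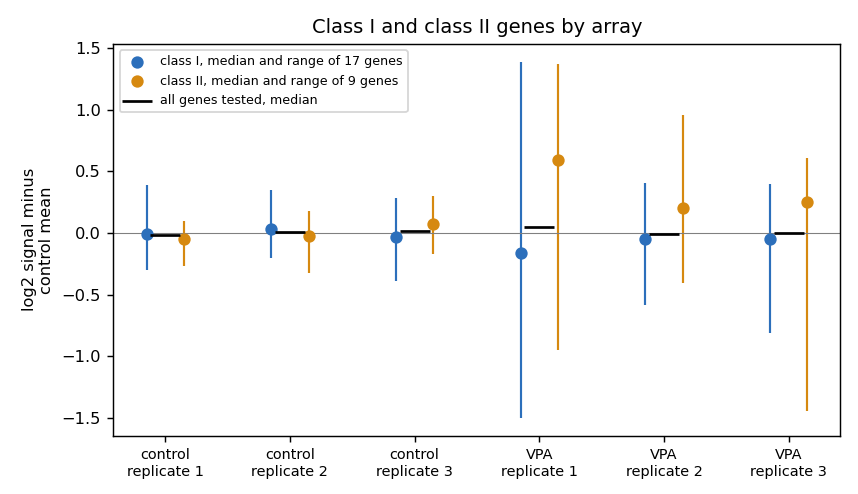
Median (points) and range (lines) of log2 signal minus the mean of the 3 control arrays (y axis) over 17 class I (blue) and 9 class II (orange) genes on each array, with the median of all genes tested as a black bar. Class II medians lie at 0.60, 0.21 and 0.25 on the VPA arrays and class I medians at -0.16, -0.05 and -0.05, while the ranges of the classes overlap on every array.

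Other genes of the pathway gave 1 call in 7 lists, in the higher direction. Of all genes 3.41% passed as higher and 0.314% as lower. The list drawn up for class II processing had 6 measured genes, all cathepsins, and whether each acts on class II was not tested. Among them Ctsh, an aminopeptidase of the lysosome, rose 2.24-fold (1.16 ± 0.16, adjusted p = 0.0123). It stood at 8.19, 7.97 and 8.39 in control and 9.38, 9.41 and 9.25 with VPA. Ctss, the cathepsin that makes the last cut in the invariant chain, had lower VPA values without passing, at 6.99, 6.77 and 7.40 in control and 6.01, 6.29 and 6.57 with VPA (-0.76 ± 0.22, adjusted p = 0.138). Among 5 genes of the immunoproteasome and its PA28 activator 0 passed, and Psmb8 and Psmb10 were at -0.33 ± 0.21 and -0.31 ± 0.15, Psmb8 at -0.11 without VPA replicate 1. Of 5 chaperones of class I folding 0 passed, with Hspa5 at -0.40 ± 0.18 and Pdia6 at 0.34 ± 0.16. Of 9 promoter factors on the array 4 were measured, and Rfx5, Rfxank, Nfya, Creb1 and Kat2b were not. Of the 4, 0 passed, with Ep300 at -0.22 ± 0.20 and Nfyc at -0.14 ± 0.14, or -0.39 and -0.22 without VPA replicate 1. The turnover ligase Marchf8 was at -0.10 ± 0.25, or 0.17 without VPA replicate 1.

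Of 11 measured interferon receptors, kinases and regulatory factors 0 passed. Before adjustment 1 had a p under 0.05 with a higher VPA mean and 4 with a lower one, against 11.5% and 5.59% of all genes. Irf8, a transcription factor of monocytes and dendritic cells, stood at 10.12, 9.98 and 10.35 in control and 8.14, 9.58 and 9.50 with VPA (-1.08 ± 0.37, adjusted p = 0.2). All its VPA arrays were below the controls, and without VPA replicate 1 it passed at -0.61 (adjusted p = 0.0472). Socs3, a feedback inhibitor of cytokine receptors, was at 0.83 ± 0.22 (adjusted p = 0.103). Of 6 costimulatory and CD1-type genes 0 passed. By limma before adjustment, 2 of the 6 were higher at p under 0.05 and 0 lower, against 11.5% and 5.59% of all genes. Cd86, the costimulatory ligand of antigen-presenting cells, stood at 6.76, 6.97 and 6.26 in control and 8.47, 7.46 and 7.6 with VPA (1.18 ± 0.31, adjusted p = 0.100), above the controls on every VPA array, and Mr1 was at -0.50 ± 0.41, or -0.012 without VPA replicate 1.

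Markers of cells that carry class II were followed beside these values. Of 13 dendritic cell and macrophage markers named on the array 6 were measured, and Itgax, Zbtb46, Xcr1, Clec9a, Cd209a, Ccr7 and Cd14 were not. Batf3, a dendritic cell transcription factor, was detected on 0 of 3 control and 3 of 3 VPA arrays. Its VPA mean was at least 1.26-fold higher than the lowest detected signal in control. It entered the fit only through the group where it is high, so its p is not given. Mrc1, the macrophage mannose receptor, fell by 1.66 ± 0.25 on the log2 scale (adjusted p = 0.0167) and was detected on 2 of 3 VPA arrays. The rest did not pass. Adgre1 was at 0.78 ± 0.33 and Flt3 at 0.06 ± 0.25, Siglech at -0.99 ± 0.38 and Cx3cr1 at -0.41 ± 0.22. Without VPA replicate 1 Flt3 was at 0.27, Siglech at -0.62 and Cx3cr1 at -0.25. The summed linear signal of the 6 was 566.6 to 766.7 in control and 452.1 to 682.9 with VPA, with overlap. Of 7 B cell markers Cd79b was measured, at -0.25 ± 0.14 with summed signals of 641 to 736.4 in control and 549.7 to 627 with VPA, while Cd79a, Ms4a1, Pax5, Ebf1, Cd22 and Blnk were not measured. These values are given beside H2-Ab1 and Cd74 because such cells carry both.

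Among the other lists, the 9 neutrophil genes, secretory granule proteins among them, were all measured. The L-S+K+ phenotype leaves out mature lineages, the cells were cultured for 24 h, and which cells gave these signals was not tested. The summed linear signal of the 9 genes was 54400 to 82850 in control and 44590 to 76480 with VPA. Of the 9, 0 passed and 4 were lower with a p under 0.05 before adjustment, against 5.59% of all genes. Camp was at -1.37 ± 0.38 and Ngp at -1.34 ± 0.40. For T and NK cells 2 of 8 genes were measured and 0 passed, with Nkg7 at 0.37 ± 0.20 and Klrb1c at -0.34 ± 0.22 (0.21 and -0.15 without VPA replicate 1), and the summed signal was 1914 to 2302 in control and 2251 to 3388 with VPA. Cd3e, Cd3d, Cd3g, Cd4, Cd8a and Ncr1 were not measured. By limma 0 of the 11 stem and progenitor genes passed, with Tal1 higher at p under 0.05 before adjustment, against 11.5% of all genes. Procr, the endothelial protein C receptor of stem cells, was detected on 3 of 3 control and 0 of 3 VPA arrays (at least 1.23-fold lower against the lowest detected signal). It entered the fit only through the control group, so its p is not given. Cd48 was at -0.55 ± 0.29, or -0.25 without VPA replicate 1. What these cell types contribute to the antigen presentation genes was not tested.

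**Figure D4:**
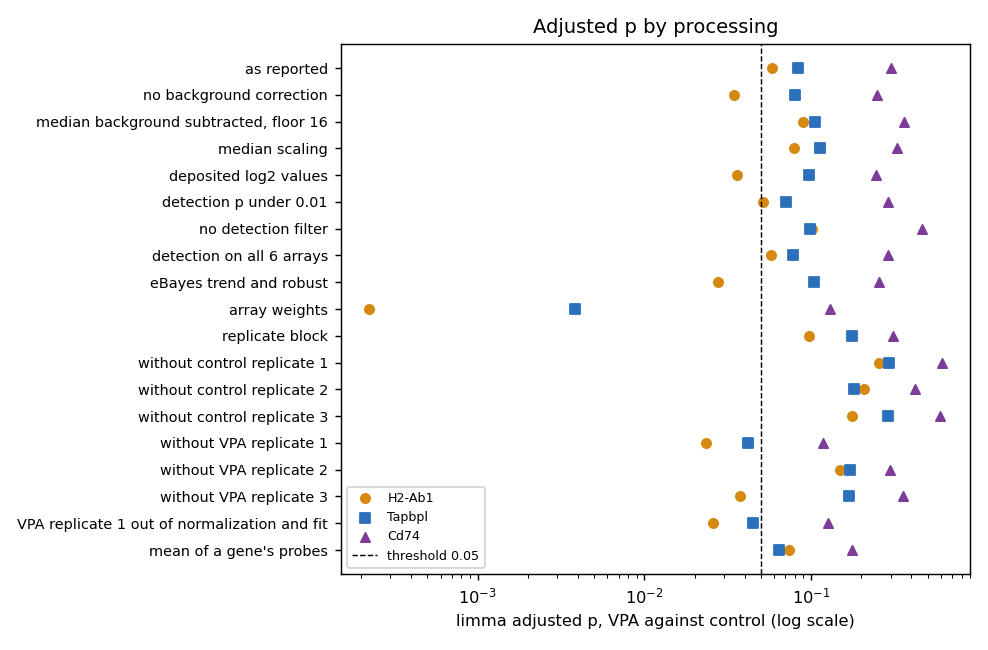
Adjusted p of limma (x axis, log scale) for H2-Ab1, Tapbpl and Cd74 under the reported processing and each alternative (y axis), with the threshold of 0.05 as a dashed line. H2-Ab1 passes under 7 of 18 alternatives, Tapbpl under 3 and Cd74 under 0.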

How the data were processed

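The deposited table of the series holds raw mean signal intensity and a detection p-value for 25697 probes on 6 arrays, per the file headers. Per the submitters' processing notes the software was GenomeStudio, with no version given. A second deposited table holds log2 values with the same mean and SD on every array. Its method is not given in the sources used here, and it served as an alternative.

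The neqc function of limma 3.58.1 (R 4.3.3) estimated background from the detection p-values. It then quantile-normalized the corrected signals on the log2 scale, with 16 added to each. Background correction widens the changes of dim probes. Only probes that 3 or more arrays detected (p-value below 0.05) were kept, 11115 in all, and gene symbols come from the platform annotation, which names 1 gene for 23978 probes. VPA and control were compared over all kept probes with lmFit and eBayes, Benjamini-Hochberg adjustment and a threshold of 0.05. With 3 arrays per group, their number limits the precision.

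Members and lists were chosen with earlier results of these data known. Every measured member is named, and from each list the genes past the threshold or, where fewer than 2 passed, those with the largest change up to 2 in all. All measured dendritic cell and macrophage markers are given as well. Same-numbered arrays were checked for pairing, and their deviations from the group means correlated at 0.13, -0.06 and 0.05. The fit was tested on simulated data with known differences. It called 15 out of 71 kept probes that had been given a 1.5-fold difference. For a 2-fold difference it called 25 out of 58, and for 4-fold 58 out of 71. False calls numbered 9 among 11129 probes. A gene that did not pass may thus still differ by 2-fold or less. Alternatives changed the background correction, scaling, detection filter, variance model, array weights, probe summary and arrays used, or took the deposited log2 values. Leaving VPA replicate 1 out for the list genes was chosen after seeing the data.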

Additional observations from a re-analysis of the deposited data

How the results depend on the processing

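The 0 calls among 27 genes depend on single choices. H2-Ab1 alone was called higher (1 gene) without background correction and with a trended, robust variance model, and H2-Ab1 and H2-Ke6 were called (2) in the deposited log2 values. Of all genes 2.97%, 3.31% and 2.81% were called higher in these settings, against 3.41% as reported. With VPA replicate 1 out of normalization and fit, 1 gene was higher (H2-Ab1) and 1 lower (Tapbpl), against 5.99% and 1.51% of all genes. Array weights called 7 higher, H2-Aa among them, and 1 lower, with 17.1% of all genes higher and 14.2% lower. Leaving out 1 array at a time gave 0 to 1 higher and 0 to 1 lower, the calls coming without VPA replicate 1 or 3, where 6.2% and 2.41% of all genes were higher. With a replicate block 0 were called, and 178 genes were higher and 13 lower over the array, against 272 and 25; the numbers do not pair the arrays. Under that block the adjusted p of H2-Ab1 was 0.0969 and that of Tapbpl 0.177. The cause of these shifts was not tested.

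The class I median, -0.10, was 0.072 with median scaling, which moved the median of all genes to 0.09 (from -0.02), -0.035 with array weights, -0.0087 with VPA replicate 1 out of normalization and fit and -0.17 with the mean of a gene's probes. It ranged from -0.15 to -0.0091 with 1 array left out, and the class II median from 0.19 to 0.38. Its excess over class I of 0.31 stayed above 0 in all 18 alternatives, from 0.14 (median scaling) to 0.45 (without VPA replicate 3).

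Of 27 genes 14 changed sign in at least 1 alternative. With median scaling B2m was at 0.17 and H2-M11 at 0.093. With array weights B2m was at 0.030, Erap1 0.038, H2-Aa 0.40, H2-Eb1 -0.18, H2-K1 -0.026, H2-M10.1 0.15, H2-Q8 0.022, H2-T10 -0.28, Tap1 -0.13 and Tapbp -0.035. With VPA replicate 1 out of normalization and fit Erap1 was at 0.049, H2-Aa 0.30, H2-DMb1 -0.014, H2-Eb1 -0.44, H2-M10.1 0.0086, H2-Q1 0.039, H2-T10 -0.31, Tap1 -0.12 and Tapbp -0.11. With the mean of its probes H2-K1 was at -0.12. With 1 array left out Erap1 ranged from -0.36 to 0.047, H2-Aa from -0.37 to 0.30, H2-DMb1 from -0.014 to 0.33, H2-Eb1 from -0.44 to 0.38, H2-M10.1 from -0.82 to 0.0082, H2-Q1 from -0.65 to 0.038, H2-T10 from -0.30 to 0.23, Ifi30 from -0.0015 to 0.43, Tap1 from -0.12 to 0.23 and Tapbp from -0.11 to 0.67.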
